A study of Mus musculus with 6 samples.

Results

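The segments of the T cell receptor alpha locus were followed in splenic CD8+ T cell RNA of the mouse. They comprised all genes of the deposited table whose symbol begins Trav (variable, V) or Traj (joining, J), or is Trac (constant), at a 6-library mean of 10 normalised counts or more. That rule kept 101 of the 161 such genes in a table of 26181 genes: 61 of 101 Trav, 39 of 59 Traj and Trac itself, with 60 segments below the minimum. The animals were wild-type C57BL/6 mice, 6 weeks old at the start, that ate either the control diet labelled ND or CDAHFD for 7 weeks. CDAHFD, a high-fat diet that lacks choline and has defined amino acids, is used to model steatohepatitis. Each diet gave 3 libraries of primary splenic CD8+ T cells. No label says that the libraries of a diet came from separate mice, so a p-value speaks of the spread among these samples, and that spread may be technical. The sources used here do not say how the cells were purified.

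An alpha chain gene is assembled in developing thymocytes by joining 1 V segment to 1 J segment, after which the joined exon is spliced to Trac. The V segment encodes most of the variable domain, the J segment encodes the end of that domain, and Trac encodes the constant domain with the membrane anchor. First joins tend to use V segments and J segments near each other, and repeated joining on the same allele moves outward, to V segments farther upstream and to J segments nearer Trac. In an unspliced transcript of a joined allele the J segments between the join and Trac are still present. The table does not separate spliced from unspliced RNA, so a Traj count below is RNA over that segment and not a count of chains built with it.

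On mm10 the segments lie at chr14:52427928-54224206, all on the plus strand, with V segments first, then the J cluster from high numbers to low, then Trac. The J segments that carry the results are printed here with capitals marking the codons TTN, GGN, NNN and GGN in a row, which cover the Phe-Gly-X-Gly core of a J segment. TTN also matches Leu codons, as with TTG in Traj7. The motif was searched on the coding strand in the frame in which the last base of the segment begins a codon that Trac completes. The set runs from Traj57, on the V side with almost no reads, to the pseudogene Traj1 beside Trac. It includes Traj32 and Traj16, which were called lower in share with CDAHFD, and Traj33 and Traj18, which the invariant chains of other T cells use.
Traj57 (chr14:54158505-54158569): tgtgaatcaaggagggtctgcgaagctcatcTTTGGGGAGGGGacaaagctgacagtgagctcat
Traj33 (chr14:54185358-54185414): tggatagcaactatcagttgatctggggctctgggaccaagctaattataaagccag
Traj32 (chr14:54186101-54186166): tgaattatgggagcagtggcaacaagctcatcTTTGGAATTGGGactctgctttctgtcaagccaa
Traj18 (chr14:54200777-54200842): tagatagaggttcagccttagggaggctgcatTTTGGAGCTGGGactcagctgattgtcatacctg
Traj16 (chr14:54203134-54203194): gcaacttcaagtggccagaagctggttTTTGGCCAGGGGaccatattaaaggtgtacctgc
Traj7 (chr14:54211470-54211528): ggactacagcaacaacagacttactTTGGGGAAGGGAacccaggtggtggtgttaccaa
Traj2 (chr14:54217836-54217901): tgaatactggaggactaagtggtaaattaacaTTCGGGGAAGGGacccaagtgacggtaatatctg
Traj1 (chr14:54218814-54218842): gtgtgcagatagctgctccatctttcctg
The motif was present in 43 of 51 annotated J genes, in 1 of 8 annotated J pseudogenes and in 74.6% of all 59 segments. Traj57 holds it with almost no reads over the segment, while Traj33 and Traj1 do not hold it. Traj33 has TGG, a Trp codon, in place of TTN and keeps both Gly codons.

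Some V segments differ from a copy at only a few bases, which bears on how reads could be assigned. Of each, the last 90 coding bases are printed, with capitals where a segment differs from the first of its set.
Trav14-2 (chr14:53641136-53641225): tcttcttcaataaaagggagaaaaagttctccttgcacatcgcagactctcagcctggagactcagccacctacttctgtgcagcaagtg
Trav14n-2 (chr14:53260090-53260179): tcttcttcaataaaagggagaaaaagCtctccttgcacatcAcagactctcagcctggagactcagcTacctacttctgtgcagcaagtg
Trav14d-2 (chr14:52949080-52949169): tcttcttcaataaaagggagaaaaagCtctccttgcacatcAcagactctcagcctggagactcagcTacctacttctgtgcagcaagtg
Trav16 (chr14:53743616-53743705): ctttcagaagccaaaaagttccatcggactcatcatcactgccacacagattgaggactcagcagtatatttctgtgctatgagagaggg
Trav16n (chr14:53351532-53351621): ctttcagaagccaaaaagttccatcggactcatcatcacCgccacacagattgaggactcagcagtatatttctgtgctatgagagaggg
Trav16d-dv11 (chr14:53047732-53047821): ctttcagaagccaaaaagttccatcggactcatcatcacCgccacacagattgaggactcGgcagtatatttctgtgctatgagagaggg
Trav15-1-dv6-1 (chr14:53560158-53560247): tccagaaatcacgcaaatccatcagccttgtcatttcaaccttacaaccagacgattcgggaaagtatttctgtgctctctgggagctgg
Trav15-2-dv6-2 (chr14:53649905-53649994): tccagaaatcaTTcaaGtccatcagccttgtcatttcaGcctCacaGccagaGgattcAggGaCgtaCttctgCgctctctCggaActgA
Trav14n-2 and Trav14d-2 shared 1 sequence here and differed from Trav14-2 at 3 bases, Trav16n differed from Trav16 at 1 base and Trav16d-dv11 at 2, and Trav15-2-dv6-2 differed from Trav15-1-dv6-1 at 15. The marks d and n name copies from duplications within the V array, and -dv marks a V segment that delta chains can use too.

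The libraries held 25314988 to 28067393 reads, and the 101 members took 0.0430% to 0.0606% of them. All 16 genes of a CD8 T cell list were detected, with summed levels of 191124 to 198961 normalised counts in ND and 160537 to 166296 in CDAHFD libraries. Of these genes 13 fell, 2 were not called, and Cd28, a costimulatory receptor, rose. Genes of other cells were also present and moved with the diet. All 14 genes of a macrophage list rose, their sum going from between 18957 and 20906 to between 165196 and 183455, and none was at 0 in any library. Of 10 B cell genes 9 fell, with sums of 57033 to 58080 in ND and 49823 to 53059 in CDAHFD libraries, again with none at 0. The part of these other cells in the results below was not tested.

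Alpha chain RNA was lower in every CDAHFD library than in every ND library, in Trac and in the summed V and J segments alike. Trac, the constant region read out of every alpha chain transcript (chr14:54220521-54224206), stood at 10821, 10836 and 11249 normalised counts in the ND libraries and at 8406, 9113 and 9204 in the CDAHFD libraries. The diets did not overlap, and the mean differed by -18.8%. Trac fell by 0.30 on the log2 scale (SE 0.04, limma adjusted p = 4.82e-07). Here and below a gene is said to have risen or fallen at a limma adjusted p under 0.05, Benjamini-Hochberg over all 15819 genes tested, and each fold change is a difference in log2(normalised count + 1), a scale that understates changes of low genes. In RNA from many cells, fewer cells of a type and less of the RNA per cell cannot be told apart.

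The 61 Trav members summed to 2607, 2746 and 2756 normalised counts in ND and to 2201, 2006 and 2002 in CDAHFD libraries, a mean of 2703 ± 83.1 against 2069.6 ± 114 (SD, n = 3) and a difference of -23.4%. The 39 Traj members summed to 1519, 1639.8 and 1875 against 1014, 1357 and 1349, a difference of -26.1%. Neither sum overlapped between the diets, and an exact permutation test gave each 0.1 as the two-sided p, and no smaller p is possible with the 20 regroupings of these libraries. Set against Trac, the Trav sum came to 24.6% ± 0.635 in ND and 23.3% ± 2.49 in CDAHFD libraries, and the Traj sum to 15.3% ± 1.32 and 13.9% ± 1.57. Both of these ratios overlapped between the diets (exact permutation p = 0.4 for each), so the segments were not shown to differ from the constant region. The CDAHFD replicate 1 library stood apart within its diet: it had the highest Trav sum and the lowest Traj sum and Trac level, and its Traj sum was 46.1% of its Trav sum against 58.3% to 68.0% in the other 5 libraries. Divided by annotated exon length, per 100 bases, all Trav genes of the table summed to a level of 727 ± 10.6 in ND and 558 ± 30.3 in CDAHFD libraries. On the same scale all Traj genes summed to 3232 ± 351 and 2362 ± 375, and Trac stood at 1173 ± 25.9 and 953 ± 46.7. In counts the order of Traj and Trac was the reverse, with Traj means of 1779 and 1296 against 10969 and 8908 for Trac. The annotated length is 29 bases for Traj1 and 935 for Trac, so the order on this scale rests on the divisor.

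**Figure D1:**
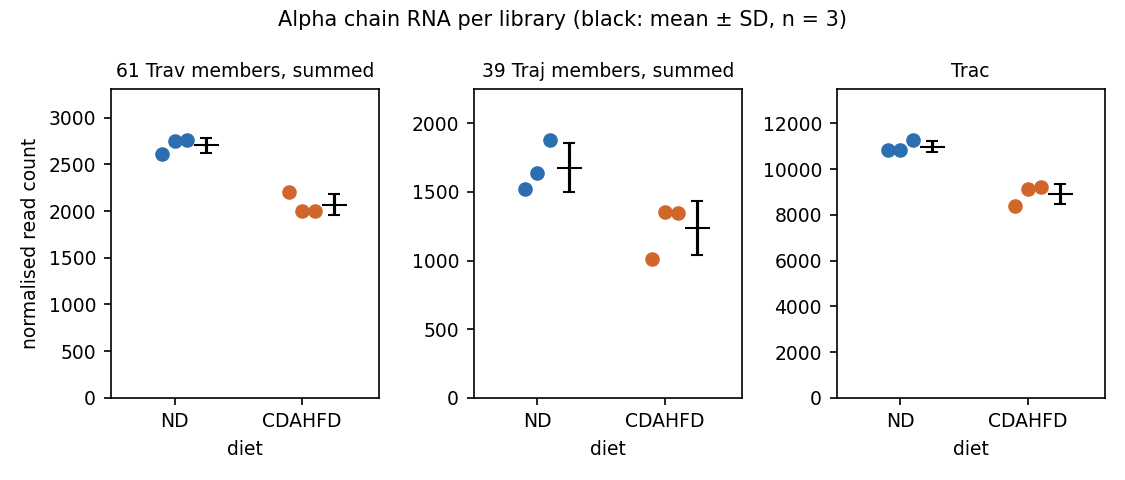
Normalised read count of the 61 Trav members summed, the 39 Traj members summed and Trac in each library (points) by diet, with the mean and SD of 3 libraries in black. In every panel all 3 ND points lie above all 3 CDAHFD points, and 1 CDAHFD library has the highest Trav and the lowest Traj value of its diet.

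Most chains of the receptor that hold alpha at the cell surface also fell. Of 6 receptor partners 5 fell, 0 rose and 1 was not called, with a median log2 fold change of -0.44. All 6 are also on the CD8 T cell list above, so this is not a separate count. The other genes of that list ran from a log2 fold change of -0.48 for Cd5 to 0.39 for Cd28, so a fall of this size was not particular to the partners. Trbc1 and Trbc2, the constant regions of the beta chain, fell by 0.48 and 0.47 on the log2 scale, and Cd3g, Cd3d and Cd247, signalling chains of the receptor complex, by 0.46, 0.41 and 0.30 (limma adjusted p from 3.66e-11 to 0.0487). Cd3e, another of those chains, had a log2 fold change of -0.09 with an adjusted p of 0.0801. Of all genes tested 47.1% were called, 22.5% lower and 24.6% higher.

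Single V segments gave the same direction with less precision. Of the 61 Trav members 13 fell and 0 rose, against a background of 22.5% called lower among all genes tested. That is 21.3% of the members, near the background, but most genes tested are more abundant than the segments. Among the 5137 genes with a mean no higher than that of the most abundant segment, 10.5% were called lower and 21.8% higher. Whether called or not, 50 Trav members had a negative fold change, with a median of -0.40 against -0.01 over all genes tested. The diets did not overlap in 22 members, all lower in CDAHFD, against 26.5% of all genes. The median standard error was 0.27 for Trav members and 0.08 for all genes, since a Trav member rested on 60 to 717 reads over the 6 libraries. On the recovered reads, edgeR called 15 Trav members lower, 12 of them among the 13, against 22.6% of all genes.

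The 8 Trav members with the largest means were Trav3-3, Trav16n, Trav16, Trav12-2, Trav14-1, Trav13-1, Trav5-4 and Trav9-2, all V segments of the variable domain. Trav3-3, the most abundant, had 130, 150 and 147 normalised counts in ND and 103, 90.9 and 92.9 in CDAHFD libraries. Its diets were well apart, and it fell by 0.57 on the log2 scale (SE 0.14, limma adjusted p = 0.00113). Trav16 stood at 145, 107 and 117 against 80.4, 76.7 and 66.8, likewise without overlap, and fell by 0.71 (SE 0.16, limma adjusted p = 0.000515). Its copy Trav16n stood at 113, 120 and 131 against 112, 92.8 and 103, where the lowest ND library was just above the highest CDAHFD library, with a log2 fold change of -0.24 and an adjusted p of 0.172. Trav12-2 fell from 118, 130 and 117 to 85.6, 76.7 and 65.8, by 0.67 on the log2 scale (limma adjusted p = 0.000618). No test was made of 1 segment against another.

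Trav14-1 fell by 0.53, from 130, 115 and 96.2 to 82.5, 65.3 and 88.1 (limma adjusted p = 0.00889), and its call was lost without ND replicate 1 or CDAHFD replicate 2. Trav9-2 fell by 0.45, from 80.3, 93.9 and 87.7 to 63.4, 68.2 and 59 (limma adjusted p = 0.0285), a call lost without ND replicate 2, ND replicate 3 or CDAHFD replicate 3. Over all alternatives their adjusted p ranged from 0.00558 to 0.0711 and from 0.00964 to 0.106. Trav13-1 and Trav5-4 were not called, with log2 fold changes of -0.20 and -0.12. Trav5-4 was nearly level within each diet, at 80.3, 87.8 and 83.0 against 76.1, 77.7 and 76.5 normalised counts. Per 100 exon bases the levels of these 8 ran from 13.4 for Trav9-2 to 28.4 for Trav3-3. The other segments that fell were Trav6-7-dv9, Trav2, Trav15-1-dv6-1, Trav14d-3-dv8, Trav6-5, Trav8-2, Trav14n-3 and Trav14-2, by 1.22 to 0.48 on the log2 scale. Trav8-2 is annotated as a pseudogene.

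V segments shared with delta chains can be read out of either chain, and these reads cannot be told apart. Of the 8 members marked -dv 3 fell and 0 rose, with a median log2 fold change of -0.63, beside 13 of all 61 Trav members and 22.5% of all genes called lower. The count was made after the values were seen and was not tested. Trdc, the constant region of the delta chain, fell by 0.70, from 263, 227 and 270 to 162, 171 and 135 normalised counts (limma adjusted p = 1.48e-05).

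Of the 39 Traj members 10 fell and 0 rose, 25.6% of them against the same backgrounds of 22.5% over all genes and 10.5% among genes of like abundance. A negative fold change was found in 37 members, with a median of -0.43, and the diets did not overlap in 16, all lower in CDAHFD, against 26.5% of all genes. The 10 were Traj32, Traj16, Traj37, the pseudogene Traj36, Traj21, Traj20, Traj24, Traj19, Traj11 and Traj7, by 1.42 to 0.45 on the log2 scale. edgeR called 9 members lower, all among the 10. The count rested in part on single libraries, since 6 Traj members were called without ND replicate 3 and also 6 without CDAHFD replicate 1. A Traj member rested on 64 to 573 reads over the 6 libraries.

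**Figure D2:**
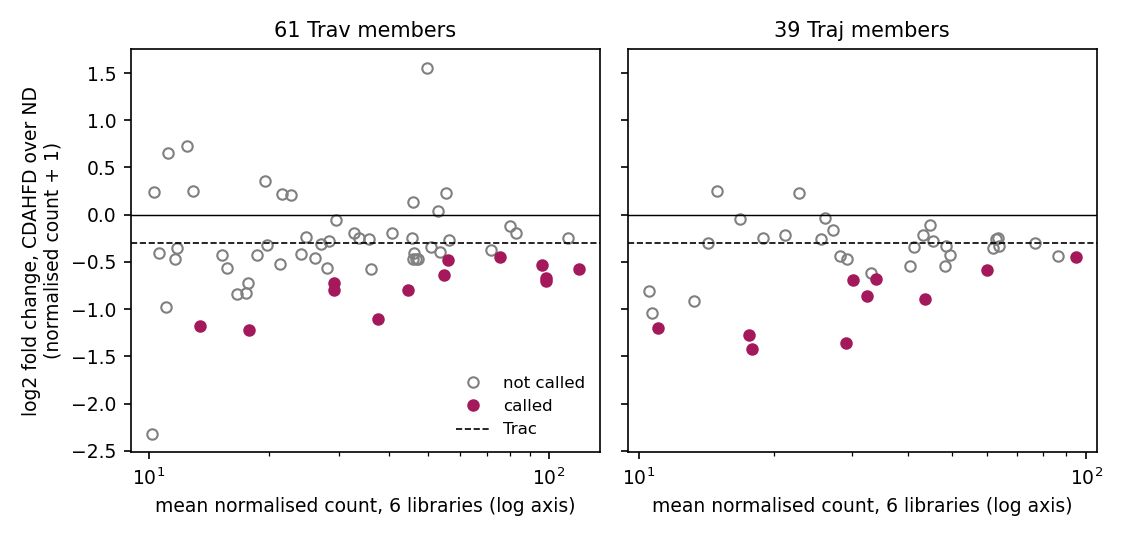
Log2 fold change of CDAHFD over ND (log2 of normalised count + 1) against the mean normalised count over 6 libraries (log axis) for the 61 Trav members (left) and 39 Traj members (right), with filled points for members called by limma. The 13 and 10 called members lie below 0, and most members lie near or below the dashed line of Trac at -0.30.

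Along the J cluster the count went from almost nothing at the V side to its highest values beside Trac. In groups of 10 segment numbers, from 51 to 61 down to 1 to 10, the mean normalised count per segment was 1.82, 6.24, 15.2, 27.8, 43.6 and 65.6. Traj57, a J gene near the V side, had a level of 1.21 normalised counts per 100 exon bases. Traj40 had 13.8, Traj20 had 55.8 and Traj7 had 160. The Spearman correlation of count with position was 0.98 over the 59 segments of the table, and 0.94 to 0.96 in the single libraries. It was 0.97 for counts per 100 exon bases and 0.98 over the 51 segments annotated as genes. These are descriptions across neighbouring segments of 1 locus read from the same libraries, and no p is given.

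Pseudogenes took their place in the order. Traj1, an annotated pseudogene of 29 bases that is the J segment nearest Trac, had 74.0, 105 and 121 normalised counts in ND and 62.4, 71.0 and 85.2 in CDAHFD libraries, with overlap between the diets. Its level of 298 per 100 exon bases was the highest of the 59, but in counts Traj7 was higher, at a mean of 94.7 against 86.4. The pseudogenes Traj14 and Traj8 had mean counts of 45.3 and 48.3, beside 48.6 for the gene Traj13 and 49.5 for the gene Traj9. Per 100 exon bases the pseudogenes had 133 and 131, beside 85.3 and 85.4 for the genes. That difference rests on annotated lengths of 34 and 37 bases against 57 and 58. The minimum of 10 counts fell within this slope: the 10 segments numbered 51 to 61 held no member, those numbered 41 to 50 held 1 and those numbered 1 to 20 held 19 of 19. The Traj segments on either side of the minimum were Traj38, at 10.5, and Traj42, at 9.11 normalised counts.

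**Figure D3:**
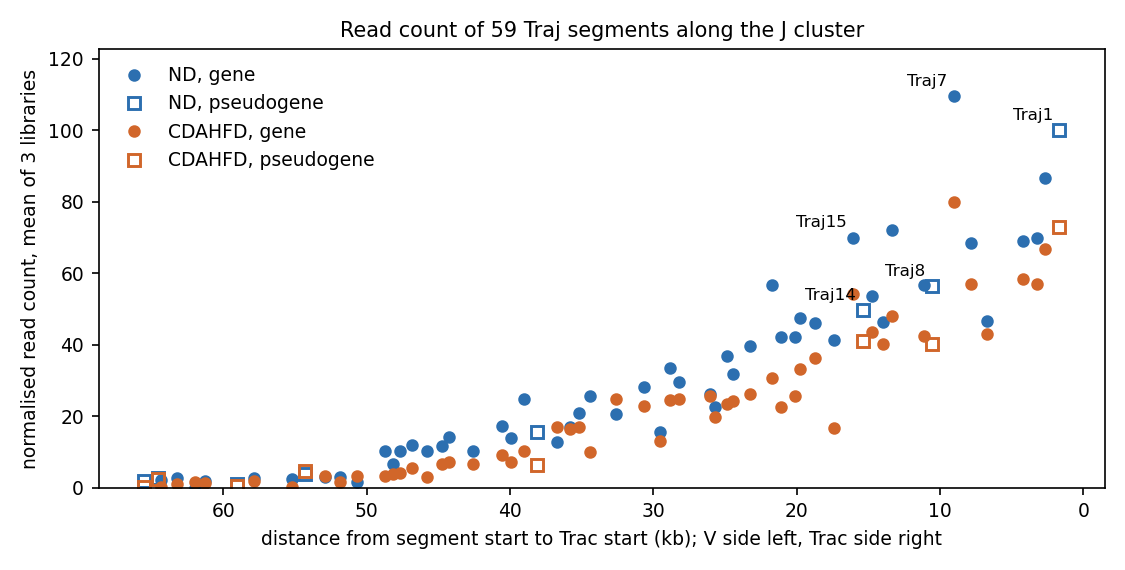
Mean normalised read count of each of the 59 Traj segments in the 3 ND and the 3 CDAHFD libraries against distance to the start of Trac in kb, with the V side at left, filled circles for genes and open squares for pseudogenes. Counts climb toward Trac in both diets, Traj7 and the pseudogene Traj1 stand highest, and ND values lie above CDAHFD values over most of the cluster.

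The 8 Traj members with the largest means all carried numbers of 15 or less: Traj7, Traj1, Traj2, Traj4, Traj3, Traj6, Traj15 and Traj11. Traj7 had 99.0, 104 and 125 normalised counts in ND and 74.0, 84.3 and 81.3 in CDAHFD libraries, without overlap, and fell by 0.45 on the log2 scale (SE 0.16, limma adjusted p = 0.0196). Traj11 fell by 0.58, from 66.7, 79.6 and 69.8 to 40.2, 56.8 and 47.4 (SE 0.19, limma adjusted p = 0.0145). The call of Traj7 was lost without ND replicate 3 or CDAHFD replicate 1, and that of Traj11 without ND replicate 2 or CDAHFD replicate 1, their adjusted p ranging over all alternatives from 0.0156 to 0.116 and from 0.00834 to 0.0726. The other 6 were not called. Traj1, with an adjusted p of 0.0526, came nearest, and Traj2 had 62.5, 64.3 and 133 against 52.9, 73.9 and 73.6 normalised counts, so that 1 ND library set its mean.

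Sums were lower in CDAHFD libraries in every stretch of the cluster. Summed over all segments numbered 1 to 10, the libraries had 585, 639 and 766 normalised counts in ND and 432, 564 and 556 in CDAHFD. For numbers 41 to 50 the sums were 83.4, 69.4 and 96.2 against 32.8, 46.4 and 46.5. In each of the 6 groups of numbers the diets did not overlap and CDAHFD replicate 1 was lowest, and the log2 ratio of the summed means lay between -0.99, for numbers 41 to 50, and -0.36, for numbers 1 to 10. For numbers 31 to 40 the nearest libraries were almost level, at 159.5 in ND replicate 1 and 158.7 in CDAHFD replicate 3.

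As a share of the summed Traj members, which sets the level of the chain aside, the zone nearest Trac was slightly higher in CDAHFD libraries. Segments 1 to 20 took 69.3%, 70.1% and 70.3% in ND and 71.9%, 70.6% and 70.4% in CDAHFD libraries. The diets did not overlap, but the gap between the nearest libraries was far smaller than the spread within either diet (exact permutation p = 0.1, the smallest possible). The difference of 1.03 percentage points became 0.533 without CDAHFD replicate 1 and lay between 0.724 and 1.32 without any other single library. Segments 21 to 40 took 29.2% ± 0.522 and 28.5% ± 0.657, and segments 41 to 61, with 1 member, took 0.848% ± 0.0879 and 0.554% ± 0.280, both overlapping. For segments 21 to 40 the difference of -0.735 points became -0.359 without CDAHFD replicate 1 and -0.453 without ND replicate 1. For segments 41 to 61 the difference of -0.294 points became -0.173 without CDAHFD replicate 1 and -0.447 without CDAHFD replicate 3. The count-weighted mean segment number was 15.1 ± 0.276 in ND and 14.6 ± 0.275 in CDAHFD libraries, with overlap (exact permutation p = 0.2). Without annotated pseudogenes the share of segments 1 to 20 overlapped between the diets (66.4% ± 0.494 and 67.3% ± 1.51, exact permutation p = 0.6). With all 59 segments the shift was larger and the mean number did not overlap between the diets, at 16.9 ± 0.321 and 16.0 ± 0.212 (exact permutation p = 0.1).

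To test single J segments apart from the level, the fit was repeated with every library scaled to the same Traj total. The log2 ratio of the summed Traj counts, CDAHFD over ND, was -0.44, and the scaling takes that amount out of every fold change. Of the 39 members 2 fell relative to the total and 0 rose, where 41.3% of all genes tested were called in either direction (40.5% by edgeR). With so many genes called, an adjusted p lies close to the unadjusted one, which was under 0.05 for 3 members. Traj16 went from a share of 2.49% to 1.35%, with 44.8, 37.8 and 41.5 normalised counts in ND and 14.8, 25.6 and 9.68 in CDAHFD libraries. Its relative log2 fold change was -0.93 (SE 0.34, limma adjusted p = 0.0216). Traj32 went from 1.55% to 0.777%, with 24.0, 29.6 and 23.6 against 4.23, 10.4 and 15.5 normalised counts, and its relative log2 fold change was -1.02 (SE 0.40, limma adjusted p = 0.0328). In both the diets were well apart in counts. Neither relative call was stable: that of Traj16 was lost without any single ND library or without CDAHFD replicate 3, and that of Traj32 without any single ND library or without CDAHFD replicate 1 or 2, the adjusted p ranging over all alternatives from 0.000649 to 0.212 and from 0.000176 to 0.166. edgeR called only 1 of the 39, Traj16.

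V use was spread over 18 families. Trav14 took 14.4%, 15.6% and 13.2% of the summed Trav members in ND and 11%, 11.9% and 13.1% in CDAHFD libraries. In ND it lay above every other family in every library. In CDAHFD it lay below Trav7 in every library, though their ranges overlapped: Trav7 took 11.1%, 13.4% and 13.7% there and 10.8% ± 0.358 in ND. Next came Trav9 at 9.82% ± 1.93 and 11.4% ± 0.250, Trav16 at 10.2% ± 0.926 and 9.95% ± 0.403, and Trav8 at 7.46% ± 0.784 and 8.30% ± 1.35. Trav12 took 7.95% ± 0.635 and 7.05% ± 0.286, Trav6 took 7.44% ± 0.227 and 7.01% ± 0.717, and Trav13 took 6.63% ± 1.05 and 7.34% ± 0.175. Among Trav7, Trav9 and Trav16 and among Trav8, Trav12, Trav6 and Trav13 the libraries overlapped in ND, so their order was not set apart from the spread. Shares are of counts and are not corrected for length.

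**Figure D4:**
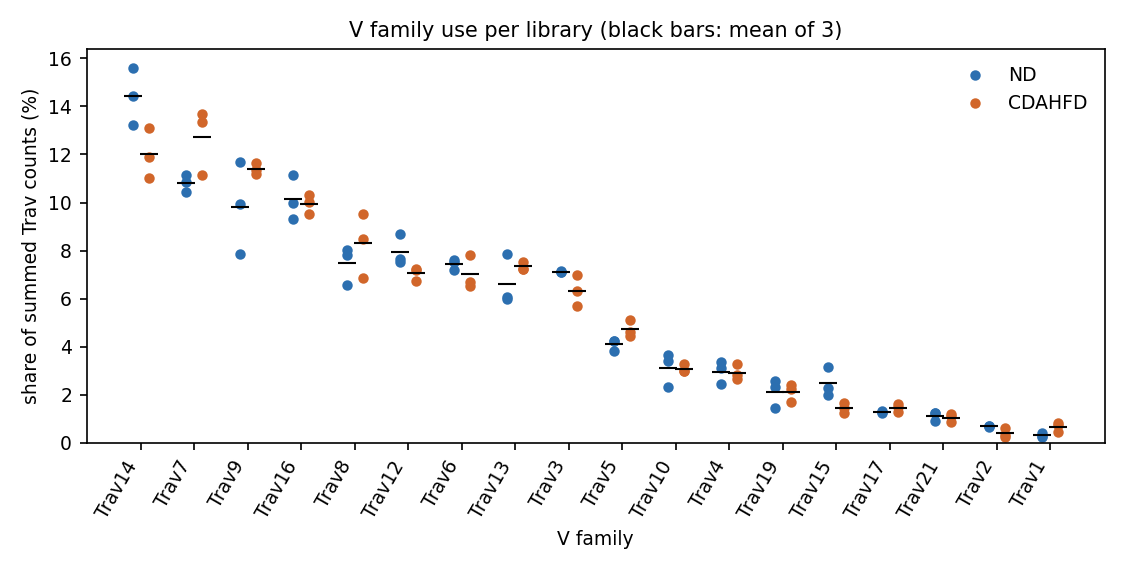
Share of the summed Trav member counts (%) taken by each of 18 V families in each library, with ND in blue, CDAHFD in orange and the mean of 3 as black bars. Trav14, Trav12, Trav3, Trav15 and Trav2 lie lower and Trav5 and Trav1 higher in all 3 CDAHFD libraries, and the other 11 families overlap.

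Relative to the Trav total 3 of the 18 families were called, where 68.5% of all genes and families in that fit were called in either direction (68.9% by edgeR). With so many called, an adjusted p lies close to the unadjusted one. The unadjusted limma p was 0.0179 for Trav14, 0.00397 for Trav15 and 0.0241 for Trav1. No adjustment over the 18 families alone was made, so these calls are weak. The log2 ratio of the Trav sums was -0.39, which this scaling takes out of every fold change. Trav14 differed by -0.27 on the relative log2 scale (SE 0.10, limma adjusted p = 0.0276). Its sum includes Trav14n-2, with 1.04, 60.2 and 0 normalised counts in ND and 0 in every CDAHFD library. That segment passed the minimum through ND replicate 2 only. Trav14d-2, with the same printed bases, was below the minimum, at 6.25, 0 and 0.943 in ND and 4.23, 0.947 and 11.6 in CDAHFD libraries. No fit was made without Trav14n-2 alone. Trav15, 2 members of which Trav15-1-dv6-1 holds most reads, went from 2.00%, 2.27% and 3.15% to 1.25%, 1.46% and 1.64%, a relative shift of -0.73 (SE 0.23, limma adjusted p = 0.00697). Trav1, a family of 1 segment that is used by the invariant chain of mucosal-associated invariant T (MAIT) cells, went from 0.400%, 0.260% and 0.274% to 0.817%, 0.472% and 0.725%, a relative change of 1.00 (SE 0.42, limma adjusted p = 0.0363). The diets did not overlap in any of the 3. The call of Trav14 was lost without ND replicate 1 or 2 or CDAHFD replicate 1 or 2, that of Trav15 without ND replicate 3 and that of Trav1 without ND replicate 2 or 3 or CDAHFD replicate 1 or 3. Over all alternatives the adjusted p ranged from 0.0146 to 0.243 for Trav14, from 0.000197 to 0.0736 for Trav15 and from 0.0130 to 0.118 for Trav1.

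Of single V segments 5 of 61 were called relative to the Trav total, 4 higher and 1 lower, beside 68.4% of all genes in that fit (68.7% by edgeR). Here too an adjusted p lies close to the unadjusted one, which was under 0.05 for 8 members. No adjustment over the 61 members alone was made. edgeR also called 5, of which 3 were shared. The 1 lower was Trav15-1-dv6-1, at 41.7, 55.1 and 57.5 normalised counts in ND and 23.3, 19.9 and 27.1 in CDAHFD libraries, differing by -0.72 on the relative log2 scale (SE 0.25, limma adjusted p = 0.0121). It also fell in level, by 1.10. The 4 higher in share did not rise in level. Trav8n-2 stood at 48.0, 61.2 and 43.4 against 68.7, 61.6 and 49.4 (relative log2 fold change 0.61, limma adjusted p = 0.0110), with overlap, and Trav7-3 at 37.5, 39.8 and 53.7 against 52.9, 38.8 and 52.3 (relative log2 fold change 0.51, limma adjusted p = 0.0442), also with overlap. Trav1 stood at 10.4, 7.14 and 7.54 against 18.0, 9.47 and 14.5. Trav9n-4 had 3.13, 8.16 and 19.8 against 19.0, 13.3 and 11.6 (relative log2 fold change 1.08, limma adjusted p = 0.0491), and its ND libraries spread more widely than the diets differed.

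Leaving out ND replicate 3 ended the relative calls of Trav15-1-dv6-1 and Trav8n-2. The relative call of Trav7-3 was lost without ND replicate 1 or 2 or CDAHFD replicate 1 or 3, and that of Trav9n-4 without ND replicate 1 or 2 or CDAHFD replicate 1 or 2. Over all alternatives the adjusted p ranged from 0.00784 to 0.0571 for Trav15-1-dv6-1, from 0.00758 to 0.0605 for Trav8n-2, from 0.0272 to 0.151 for Trav7-3 and from 0.00795 to 0.304 for Trav9n-4. The count of 5 became 3 without ND replicate 1 and 3 without ND replicate 2.

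By place along the V array, CDAHFD libraries had slightly less of their Trav count near the J cluster. With the 61 members ranked by start from the far end, the 31 members nearer the J cluster took 68.8%, 66.9% and 65.5% of Trav counts in ND and 63.9%, 62.2% and 64.1% in CDAHFD libraries. The count-weighted mean rank was 36.0, 35.9 and 36.0 against 35.3, 34.4 and 35.1. In neither measure did the diets overlap (exact permutation p = 0.1 for each, the smallest possible). With no minimum on the mean count, the share nearer the J cluster overlapped between the diets, with a difference of -1.41 percentage points against -3.65 (exact permutation p = 0.7), while the mean rank still did not overlap. Many segments of the array have near copies, so the place of their reads is uncertain.

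**Figure D5:**
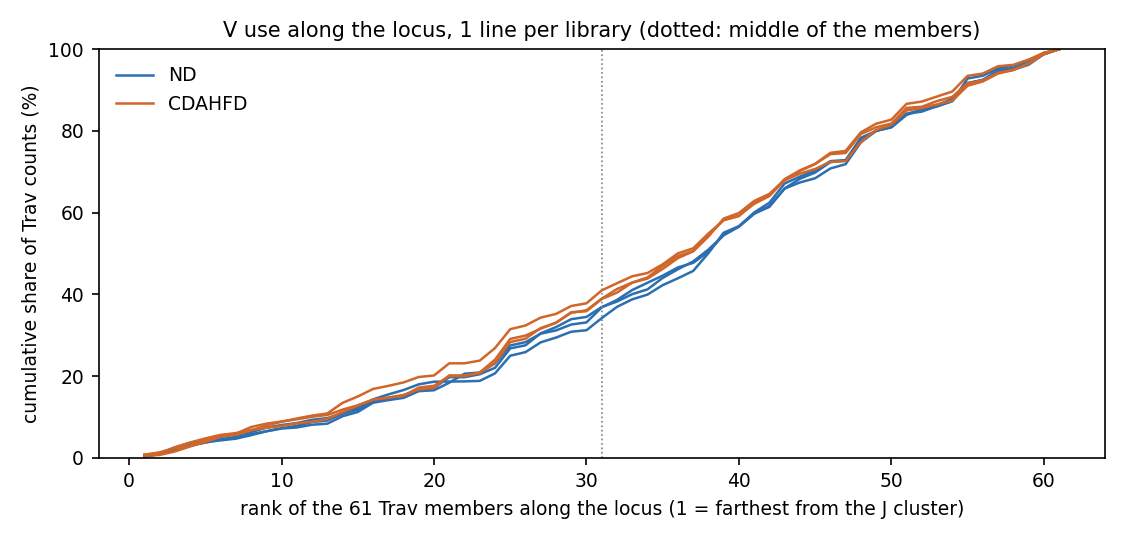
Cumulative share of Trav counts (%) against the rank of the 61 Trav members along the locus, from the segment farthest from the J cluster (1), with 1 line per library, ND in blue and CDAHFD in orange. At the dotted line in the middle of the members the 3 CDAHFD lines lie above the 3 ND lines.

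The number of segments in effective use, taken as the exponential of the Shannon entropy of the shares, was 47.6 ± 1.11 of 61 Trav members in ND and 48.1 ± 0.368 in CDAHFD libraries, with overlap (exact permutation p = 0.6). For the 39 Traj members it was 33.4, 33.5 and 32.7 against 31.5, 32.5 and 32.6, without overlap by a small margin (exact permutation p = 0.1, the smallest possible). The largest mean share of a single V segment was 5.27% in ND, for Trav3-3.

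Among the members 41 of the Trav segments were unmarked, 11 were n copies and 9 were d copies, whereas the 40 Trav segments below the minimum held 11, 12 and 17. Unmarked segments took 75.4% ± 1.73 of the Trav member counts in ND and 73.3% ± 1.71 in CDAHFD libraries. The n copies took 14%, 16.9% and 16.7% against 17.3%, 17.5% and 17.6%, without overlap (exact permutation p = 0.1). Their sum includes Trav9n-3, which had only 1 of its 303 reads in ND replicate 1, the library with the lowest n share. No share was computed without Trav9n-3, so whether the diets stay apart without it was not tested. The d copies took 8.70% ± 0.338 against 9.24% ± 1.69. Annotated transcripts of members had a median of 44.2% of their 50-base windows in common with another Trav transcript, and those below the minimum 99.0%. For short reads over such windows the copy of origin is uncertain, so the values of d and n copies are uncertain, more so than family sums.

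Some V segments had most of their reads in 1 library. Of the 126 alpha chain genes, Trac included, with at least 20 reads, 8 had 50% or more of them in 1 library, a rule set after the values were seen. All 8 were V segments, and 1 was a member. That member, Trav14n-2, lay just above the minimum with a mean of 10.2 and had 59 of its 60 reads in ND replicate 2, with 0 in every CDAHFD library. All of its windows are shared with another segment. It was not called by limma (adjusted p = 0.118), although edgeR gave an adjusted p of 0.00575, and its value rests on that 1 library. Trav7d-2 had all 44 of its reads in CDAHFD replicate 2, Trav12d-2 had 16 of 20 in ND replicate 1 and Trav7n-6 had 17 of 22 in CDAHFD replicate 3. The converse was seen in Trav9n-3, named after its values were seen, with 1.04 normalised counts in ND replicate 1 and 51 and 72.6 in the other ND libraries, beside 52.9, 59.7 and 60.01 in CDAHFD libraries. On the other side of the minimum lay Trav4-2, at a mean of 9.68.

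The segments of the invariant alpha chains of other T cells were also read. Their Traj counts are RNA over the segment, so cells with these chains cannot be counted from them. The mean count was 40.4 for Traj18, beside 41.2 for Traj17 and 33.8 for Traj19. For Traj33 it was 19.0, beside 16.8 for Traj34 and 17.9 for Traj32. Natural killer T cells join Trav11 to Traj18. Trav11 was below the minimum, with 3, 5 and 0 reads in ND and 0 in every CDAHFD library. All of its windows are shared with another segment, so its reads are uncertain. Its copy Trav11n, an annotated pseudogene, had 10 reads over the ND and 9 over the CDAHFD libraries, and Trav11d was not analysed here. Traj18 had 41.7, 40.8 and 60.3 normalised counts in ND and 25.4, 26.5 and 47.4 in CDAHFD libraries, with overlap, and was not called (log2 fold change -0.55, limma adjusted p = 0.0832). MAIT cells join Trav1 to Traj33. Trav1 had 25 reads over the ND and 42 over the CDAHFD libraries (log2 fold change of its level 0.65, limma adjusted p = 0.214), and Traj33 had 64 and 52 (-0.24, limma adjusted p = 0.657). Of 6 genes on a list for these cells 1 rose, the cytokine receptor Il18r1, and 3 fell, Slamf1, Slamf6 and Sh2d1a. Klrb1c and Zbtb16 were not called. Il18r1 went from a mean of 2355 to 4837 normalised counts and Slamf6 from 6347 to 4041, both far above Zbtb16. Whether their RNA came from these cells was not tested. Zbtb16, their defining transcription factor, had 16.0 to 21.9 normalised counts in ND and 9.52 to 25.2 in CDAHFD libraries.

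Among other antigen receptor genes, 2 gamma chain constant regions rose while alpha, beta and delta ones fell. Of 5 tested genes on a gamma delta T cell list 2 rose: the gamma constant regions Tcrg-C2, from 124, 83.7 and 83.0 to 826, 831 and 811, and Tcrg-C4, from 50.04, 71.4 and 58.5 to 312, 307 and 306 normalised counts. Their log2 fold changes were 3.10 and 2.36 (limma adjusted p = 4.47e-15 and 2.01e-14), while Trdc fell. Of the genes of receptor assembly in thymocytes, Rag1, a subunit of the recombinase, fell from 29.2, 25.5 and 21.7 to 5.29, 9.47 and 13.6 normalised counts (log2 fold change -1.41, limma adjusted p = 0.00248), and Dntt, which adds bases at the joints, was not called, at 145 to 153 and 125 to 143. Of the 5 tested genes on that list 1 rose, 2 fell and 2 were not called. All 6 genes of a memory and effector list rose, with a median log2 fold change of 1.22. Of 5 CD4 T cell genes 3 rose, 1 fell and 1 was not called. Foxp3, Ctla4 and Zbtb7b rose and Cd40lg was not called, while Cd4 itself fell from a mean of 620 to 499 normalised counts (limma adjusted p = 0.00309). The part of any of these in the segment results was not tested.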

How the data were processed

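RNA of 3 ND and 3 CDAHFD libraries was sequenced. Extraction used TRIzol, and the kit was for whole RNA or for mRNA with no word on which library got which, per the labels' protocols. The genome build was mm10, per the submitters' processing notes. Not given in the sources used here were the aligner, the counter, its strand setting and its annotation. What the authors deposited was 1 table of signal values, in which the reads of each gene are scaled by 1 factor for the library. The columns spelled CDHFD were matched to CDAHFD as the only other group.

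Every value was a whole multiple of its column's smallest value above 0 (100% within 0.001), so whole reads were recovered, 25314988 to 28067393 per library. Symbols matched 26147 IDs. Positions, biotypes and transcript sequences were taken from GENCODE release M21 for mouse, on the same build. Segments were matched by Ensembl ID.

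The main test was limma 3.58.1 (R 4.3.3; trend and robust) on log2(normalised count + 1) over the 15819 genes whose mean reached 10, with diet as the term. For shares it was repeated with libraries scaled to equal Trav or Traj totals. Single values per library had an exact two-sided permutation test. Scripts were tested on simulated data. Alternatives were pseudocounts of 0.5 and 5, no minimum or a mean of at least 50, limma without trend and robust, edgeR 4.0.16 (quasi-likelihood) and DESeq2 1.42.0 on recovered reads, equal totals, a replicate block, other zones, leaving out pseudogenes or the largest member, and each library left out in turn. Named were Trac, the 8 largest Trav and Traj members, those called in share, the invariant chain segments, those beside the minimum, and the 8 largest and the called families, and any other gene for its list or after its value was seen. Members and lists were chosen with earlier results of these data known.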

Additional observations from a re-analysis of the deposited data

How the results depend on the processing

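The fall of Trac and the counts over all genes held under every alternative run, with 7449 genes called, 7459 by edgeR, 6770 by DESeq2 and 6573 to 7537 with 1 library left out. The 13 Trav members called became 7 at a mean of at least 50 and 8 with DESeq2 (9 to 13 with 1 library left out), and the 10 Traj members became 3 at a mean of at least 50 (6 to 13). Fewer segments pass a mean of 50, and the cause of the others was not tested. Calls relative to the totals moved most: the 5 Trav members became 1 at a mean of at least 50, 12 with limma without trend and robust and 2 with DESeq2 (3 to 5), the 2 Traj members became 1 with no minimum, 0 at a mean of at least 50, 7 without trend and robust, 1 with edgeR and 0 with DESeq2 (0 to 2), and the 3 families became 1 at a mean of at least 50 (1 to 3). With no minimum the differences in share were -1.54 percentage points for segments 41 to 61 and 1.91 for segments 1 to 20, -0.90 in mean segment number, -1.58 in mean V rank, -1.41 points for the V members nearer the J cluster and -2.27 in effective Traj number. At a mean of at least 50 they were -0.087 in mean number, -0.342 in rank and 0.053 in effective Traj number, and zone shares could not be had, since only segments 1 to 20 were left. With 3 zones of equal numbers of members the differences were -0.687, -2.28 and 2.97 points. Log2 fold changes turned positive for Traj2 (0.057), Traj3 (0.023) and Traj33 (0.056) without ND replicate 3 and for Traj33 (0.10) and Traj4 (0.032) without CDAHFD replicate 1, none of them called. With 1 library left out they ranged from -0.48 to 0.057 for Traj2, -0.48 to 0.023 for Traj3, -0.71 to 0.10 for Traj33 and -0.60 to 0.032 for Traj4. Libraries of the same number showed little shared deviation (correlations of 0.04, -0.05 and 0.06, beside -0.09 to 0.05 for other pairs). These values cannot decide whether the numbers pair the libraries, since deviations are from means of only 3 libraries. With the replicate block 12 Trav and 12 Traj members were called, 7 and 3 relative to the totals, and 3 families. Depth limits single segments, of which most rest on under 100 reads per library.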
